A study of Mus musculus with 2 samples.

Results

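The mitochondrial ribosomal protein genes are the nuclear genes for the proteins of the ribosome inside mitochondria. They were taken here as all protein-coding mouse genes whose symbol starts with Mrpl or Mrps followed by a digit. Of 21853 protein-coding genes in the annotation, 78 met that rule, 51 for proteins of the large subunit and 27 for proteins of the small subunit. Accessible chromatin was mapped by ATAC-seq, which tags open DNA with a transposase, in G1E-ER4, a mouse erythroid line. The labels give strain C57BL/6J and male sex for the line and describe it as erythroid cells with Gata1 restored. G1E-ER4 descends from Gata1-null progenitors and carries GATA1, the master erythroid transcription factor, fused to the estrogen receptor's ligand-binding domain. Both libraries, biological replicates 1 and 2, came from 50000 cells each after 24 hours in 17beta-estradiol at 10 nM. All cells share the missing native Gata1, the fusion protein and the hormone, and untreated cells are not among the samples used here, so nothing below is a change caused by estradiol. The labels say nothing of separate cultures, so the spread between the libraries may be technical.

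The mitochondrial ribosome makes the few proteins that mitochondrial DNA still encodes, which are core subunits of the respiratory chain and the ATP synthase. Its RNAs come from the mitochondrial genome, while every one of its proteins is made in the cytosol and imported, so its assembly needs output from both genomes. Maturing red cells depend on mitochondria for heme and iron-sulfur cluster synthesis before they discard them. The nuclear factors NRF1, GABPA (an ETS family protein) and YY1 are the textbook regulators of nuclear genes for mitochondrial proteins, and their recognition letters were searched here in promoters. Some members descend from bacterial ribosomal proteins and others were added in the mitochondrial lineage. Symbols can mislead, since Mrps18a and Mrps30 encode proteins of the large subunit, and Mrps36 is now known mainly as a part of the alpha-ketoglutarate dehydrogenase complex.

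An accessible promoter was present at nearly every member. A promoter region is a peak region of the conservative list, the authors' regions reproducible between the replicates, that overlaps the 1 kb on either side of any annotated start of the gene. In that list 77 of 78 members (98.7%) had one, against 42.3% of all protein-coding genes. The threshold-passing list of replicate 1 alone held a promoter region for 70 members (89.7%), against 38.8% of all genes. The list of replicate 2 held one for 72 members (92.3%), against 39.9% of all genes. Over the libraries the share was 91.0% ± 1.81 (SD, n = 2) for members and 39.3% ± 0.790 (SD, n = 2) for all genes, so the gap was many times the spread between the libraries. Genes are not replicates and the study has 1 group, so no test was made here or below.

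The share was also high in the gene families most like this one. Of 91 cytosolic ribosomal protein genes, 81 (89.0%) had a promoter region, and of 94 nuclear genes for oxidative phosphorylation subunits, 85 (90.4%) did. In the libraries' own lists the share was 85.2% ± 2.33 (SD, n = 2) for the cytosolic family and 88.3% ± 1.50 (SD, n = 2) for oxidative phosphorylation. These values lay closer to the members' 91.0% than to the share of all genes. When only regions above the median signal of the list counted, 65 members (83.3%) still had one, against 32.3% of all genes, 70.3% of the cytosolic family and 76.6% of oxidative phosphorylation genes.

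**Figure D1:**
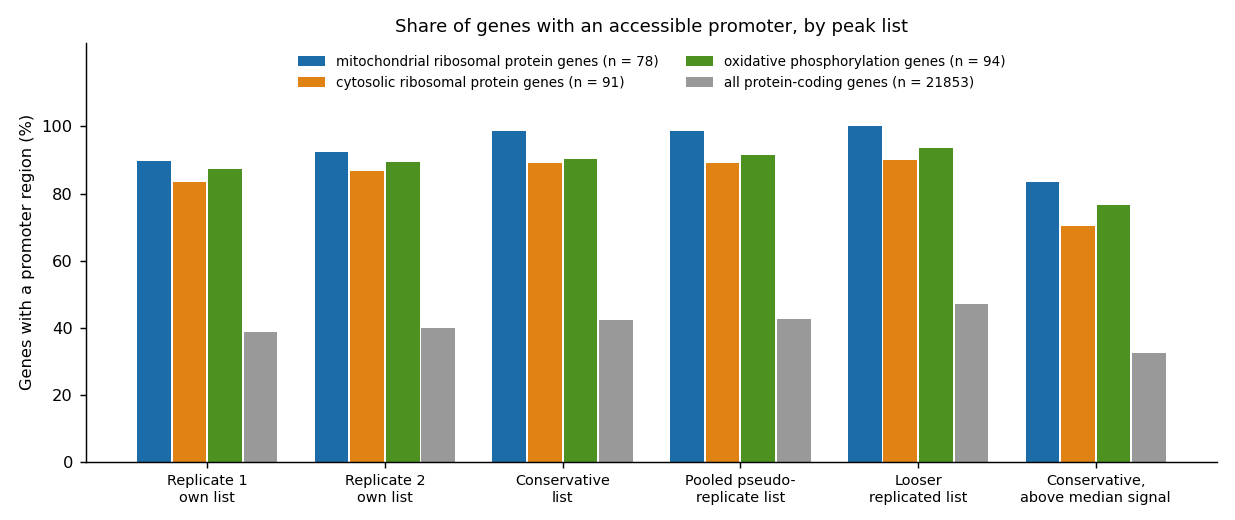
Share of genes with a promoter region (y axis, percent) in each peak list (x axis) for 78 mitochondrial ribosomal protein genes, 91 cytosolic ribosomal protein genes, 94 oxidative phosphorylation genes and all 21853 protein-coding genes. The blue bars run from 83.3% to 100%, and the grey bars for all genes from 32.3% to 46.9%.

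The erythroid label was set against marker genes. Of 20 erythroid marker genes, 18 had a promoter region in the conservative list, against 42.3% of all genes, and Gfi1b and Alas2 had none. The own lists held 14 of the 20 in replicate 1, 16 in replicate 2 and 13 in both. In the conservative list none of 8 lymphoid, 8 myeloid or mast cell, and 10 liver, neuron or muscle markers had one. There 2 of 8 megakaryocyte markers did. Read depth is unknown, and the lists held 14012 regions in replicate 1, 15564 in replicate 2 and 20080 in the conservative list. All coordinates are on mm10.

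The strength of a promoter was described by the signal, a value the authors gave each peak in unstated units, compared here only within a list. The members' strongest promoter regions had a median signal of 13.8 and ranged from 5.59 to 24.5. All 9244 genes with a promoter region had a median of 13.9 and ranged from 2.73 to 30.2. Of the 77 members, 38 (49.4%) lay above that median, and 10 (13.0%) lay in the top 10.0% of all such genes. The gap from all genes was thus in how often a promoter region was present, and the signals of those present sat in the middle of the range. The median was 13.7 for the cytosolic ribosomal family and 15.5 for oxidative phosphorylation genes.

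The sequences of the strongest and weakest promoters are printed here from RefSeq on GRCm38.p6, from 250 bases before the RefSeq start to 50 after it, on the gene's strand and 5′ to 3′. Capitals mark 3 patterns on either strand: CCGGAAG (ETS), TGCGCA (NRF1 core) and ATGGCG (YY1 core). The first set holds the 3 members of highest signal: Mrps26 at chr2:130563507-130563806 (plus strand), Mrpl44 at chr1:79775768-79776067 (plus strand) and Mrps33 at chr6:39810887-39811186 (minus strand).
Mrps26: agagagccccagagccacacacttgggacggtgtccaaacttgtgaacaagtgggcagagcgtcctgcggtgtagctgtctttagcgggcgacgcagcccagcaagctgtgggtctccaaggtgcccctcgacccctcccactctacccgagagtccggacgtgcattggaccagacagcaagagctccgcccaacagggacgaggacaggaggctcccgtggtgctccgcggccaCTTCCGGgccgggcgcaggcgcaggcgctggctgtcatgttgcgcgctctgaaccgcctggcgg
Mrpl44: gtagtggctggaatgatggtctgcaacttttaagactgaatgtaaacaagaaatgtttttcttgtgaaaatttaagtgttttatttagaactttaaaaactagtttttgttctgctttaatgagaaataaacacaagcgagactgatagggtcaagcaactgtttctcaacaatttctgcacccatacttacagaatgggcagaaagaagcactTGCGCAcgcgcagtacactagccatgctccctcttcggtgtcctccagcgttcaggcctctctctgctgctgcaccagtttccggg
Mrps33: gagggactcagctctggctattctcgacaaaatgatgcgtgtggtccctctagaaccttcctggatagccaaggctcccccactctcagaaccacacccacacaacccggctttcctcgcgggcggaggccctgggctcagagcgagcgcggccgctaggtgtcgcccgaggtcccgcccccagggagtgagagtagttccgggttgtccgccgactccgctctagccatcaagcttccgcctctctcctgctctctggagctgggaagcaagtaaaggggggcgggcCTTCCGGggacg
The second set holds the 3 members of lowest signal: Mrpl53 at chr6:83108858-83109157, Mrps5 at chr2:127587176-127587475 and Mrpl14 at chr17:45686099-45686398, all on the plus strand.
Mrpl53: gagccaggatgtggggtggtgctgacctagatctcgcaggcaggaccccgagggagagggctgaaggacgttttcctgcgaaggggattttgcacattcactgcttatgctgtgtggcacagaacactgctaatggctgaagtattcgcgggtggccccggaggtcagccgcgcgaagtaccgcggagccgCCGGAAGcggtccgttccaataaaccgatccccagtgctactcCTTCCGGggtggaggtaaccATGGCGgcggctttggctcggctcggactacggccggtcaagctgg
Mrps5: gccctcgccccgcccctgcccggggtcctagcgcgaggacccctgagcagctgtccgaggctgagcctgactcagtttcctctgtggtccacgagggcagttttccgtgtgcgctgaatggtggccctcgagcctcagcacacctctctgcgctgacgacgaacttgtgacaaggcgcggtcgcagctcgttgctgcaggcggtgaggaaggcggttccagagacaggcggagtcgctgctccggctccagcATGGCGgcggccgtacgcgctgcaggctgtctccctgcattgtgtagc
Mrpl14: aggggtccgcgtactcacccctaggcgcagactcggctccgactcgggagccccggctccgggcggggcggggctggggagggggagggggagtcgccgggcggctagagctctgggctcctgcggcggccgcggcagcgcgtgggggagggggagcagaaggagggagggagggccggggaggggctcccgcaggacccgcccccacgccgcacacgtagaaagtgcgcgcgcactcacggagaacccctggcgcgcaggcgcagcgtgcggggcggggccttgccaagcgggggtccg
The 3 strong and 3 weak promoters did not separate by these letters. Mrps26 and Mrps33 each hold 1 ETS match and Mrpl44 holds 1 NRF1 core, yet Mrpl53, the weakest, holds 2 ETS matches and 1 YY1 core. Base composition did not separate them either, since GC content was 66.3% in Mrps26 and 42.3% in Mrpl44, and 62% in Mrpl53 and 78% in Mrpl14. The RefSeq start lies 204 bp downstream of the nearest GENCODE start at Mrps5, and within 68 bp of it in the other 5.

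Among small-subunit genes, all but 1 of 27 had a promoter region, with a median signal of 14.95 (range 7.14 to 24.5). The strongest of all members was Mrps26, a mitochondria-specific protein, whose region at chr2:130563300-130563867 had a signal of 24.5 and its summit 63 bp upstream of the start. Its −log10 p was 77.5 in replicate 1 and 73.5 in replicate 2. Next came Mrps33 at 23.1 (−log10 p 73.6 and 76.1, replicate 1 first), Mrps35 at 22.4 (61.9 and 87.2) and Mrps18c at 20.7 (79.8 and 92.5). Mrps18c is a relative of a bacterial protein that exists in mammals as 3 paralogues, of which Mrps18a (20.8, in the large subunit) was also among the 10 strongest members and Mrps18b (10.4) was not. Both libraries called the promoter for 24 of the 26 small-subunit genes with a promoter region, against 88.7% of all genes with one.

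The weakest small-subunit promoter was that of Mrps5, whose bacterial relative lies on the path by which messenger RNA enters the ribosome. Its signal was 7.14, its −log10 p was 14.1 in replicate 1 and 18.9 in replicate 2, and it passed the threshold in replicate 2 only. Mrps2 had a signal of 12.3 with −log10 p of 20.5 and 18.5, and it passed in replicate 1 only. The other genes kept a wide spread of signals. Among relatives of bacterial proteins, Mrps14 had 18.2, Mrps12, at the decoding centre, had 17.6 and Mrps6 had 11.2. Among mitochondria-specific proteins, Mrps23 had 18.1, Mrps22 had 14.7 and Mrps25 had 9.13.

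The exception was Mrps34, which is needed for a stable small subunit (chr17:24895116-24897502, plus strand). No conservative region overlapped the 1 kb around its start, and neither library's own list held one. The looser replicated list, before the reproducibility threshold, held a region at chr17:24894567-24895274 with a signal of 6.28. Its summit lay 50 bp upstream of the Mrps34 start, and the nearest gene start to it was that of Eme2. The global IDR of the region, the estimated rate of irreproducible calls, was 0.0994, above the 0.05 threshold. The looser list of each library also held a peak there, with a signal of 5.26 in replicate 1 and 4.89 in replicate 2. In the looser replicated list 78 of 78 members had a promoter region, against 46.9% of all genes. The nearest region that passed the threshold, with a signal of 7.64, had its summit 1385 bp downstream of the Mrps34 start, and the nearest gene start to it was that of Nme3.

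Among large-subunit genes, all 51 had a promoter region, with a median signal of 13.4 (range 5.59 to 23.1). Relatives of bacterial proteins had a median of 12.3 (28 genes, range 7.44 to 20.1), and mitochondria-specific proteins a median of 16.1 (23 genes, range 5.59 to 23.1). Of the first group 8 lay above the median of all genes with a promoter region, and of the second 14 did. The ranges overlapped widely, and the small subunit showed no such order, with medians of 15.1 (15 genes) and 14.7 (11 genes). In these groups Mrps18a (20.8, large subunit) and Mrps18b (10.4, small subunit) were counted as mitochondria-specific, although they are paralogues of Mrps18c, which was counted as a bacterial relative.

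The strongest large-subunit promoter was that of Mrpl44, a protein related to RNase III nucleases, at chr1:79775841-79776535, with a signal of 23.1 and −log10 p of 85.5 in replicate 1 and 92.3 in replicate 2. Mrpl37 had 21.4 (70.9 and 94.4), Mrpl48 had 20.7 (78.2 and 85.0), and Mrpl42 had 20.1 (50.7 and 51.7). All of these are mitochondria-specific. Among large-subunit genes counted as bacterial relatives, the strongest promoter was that of Mrpl19 at 20.1 (47.3 and 79.2). For Mrpl48 the strongest region contains or lies within 1 kb of a start of Rab6a. Its summit is in an intron, 583 bp downstream of the nearest annotated Mrpl48 start, while the region nearest to a Mrpl48 start had a signal of 16.9.

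The weakest promoter of all 77 was that of Mrpl53, a mitochondria-specific protein, with a signal of 5.59 at chr6:83108776-83109378. It had a −log10 p of 11.4 in the ranked list of replicate 2 and no peak in that of replicate 1. The ranked list of both replicates together, however, gave it values of 12.2 and 11.4, in columns that do not name the library. The second value equals that of replicate 2 in its own ranked list. Mrpl55 had 7.89 (12.3 and 13.4), and Mrpl23, whose bacterial relative stands at the exit of the peptide tunnel, had 8.43 (14.7 and 14.8). Mrpl53, Mrpl23 and Mrpl55 were the members of the conservative list that passed in neither library's own list. Mrpl14, which in bacteria faces the small subunit, had 7.44 (13.7 and 12.8), and Mrpl15 had 8.30 (21.9 and 26.8). Mrpl15 was called in both libraries at that signal, and Mrpl14 in replicate 2 only.

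Signals varied within structural elements of the large subunit. In the stalk that recruits translation factors, Mrpl10 had a signal of 12.3, Mrpl12 had 13.6 and Mrpl11, at the stalk base, had 15.4. Around the peptide tunnel, Mrpl4 had 12.3, Mrpl22 had 11.8, Mrpl24 had 10.7 and Mrpl45, which holds the ribosome at the inner membrane, had 16.9. Mrpl58, a peptidyl-tRNA hydrolase built into the large subunit, had 16.1.

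**Figure D2:**
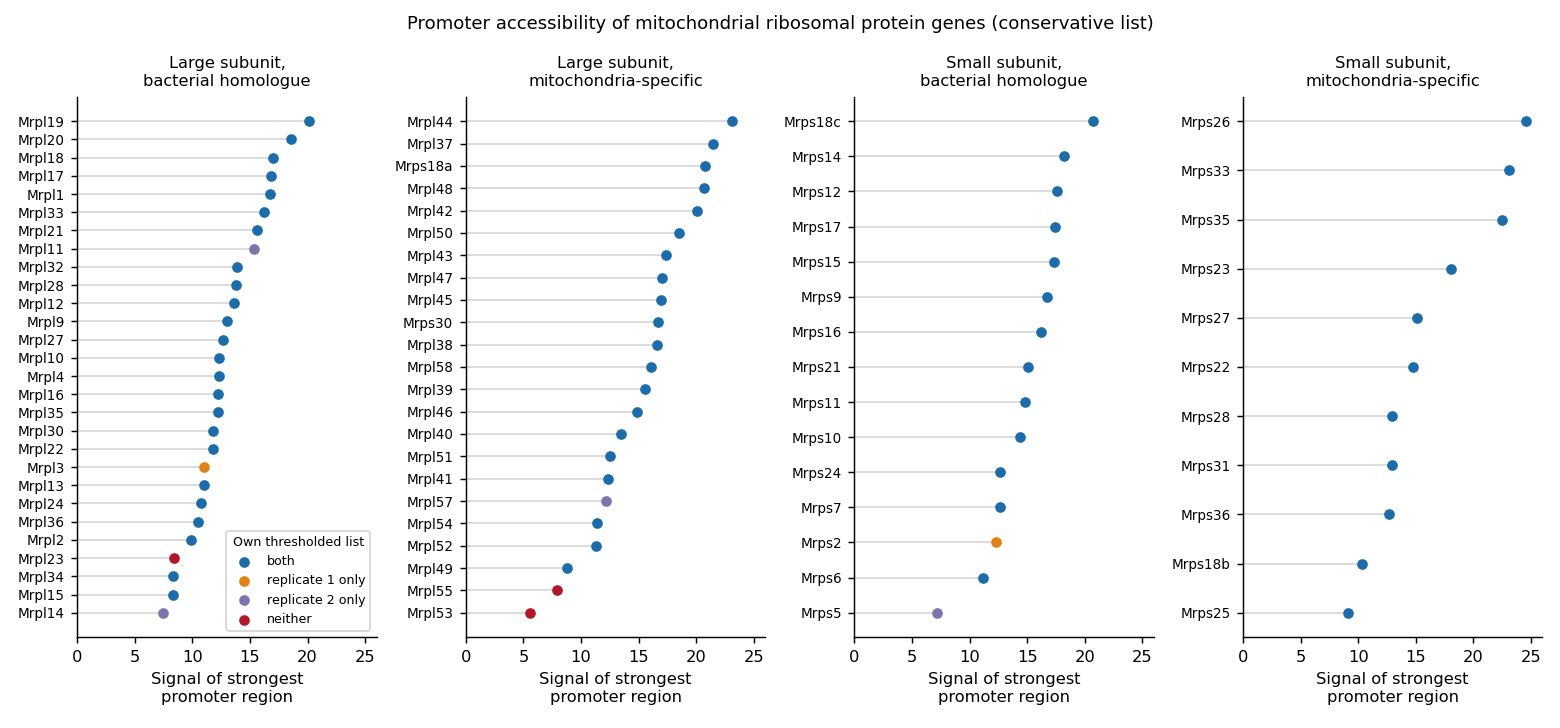
Signal of the strongest promoter region (x axis, authors' units) of each of the 77 members with one, in 4 panels by subunit and origin, ordered within a panel; the colour gives the library whose own thresholded list called a promoter region. The points run from 5.59 (Mrpl53) to 24.5 (Mrps26), and the 3 red points, called in neither own list, are at or below 8.43.

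The libraries gave near the same order of members. A −log10 p was available in both libraries for 76 members, with medians of 41.6 in replicate 1 and 45.0 in replicate 2. Spearman's rho between the libraries was 0.916 across these genes and 0.942 across 9202 genes with a promoter region, where all points share the 2 libraries and their depths. The median ratio of the larger to the smaller value was 1.15 for members and 1.16 for all such genes. Replicate 1 was the higher for 24 members (31.6%) and for 28.0% of all such genes. In the own lists 68 of the 77 members (88.3%) were called in both libraries, against 88.7% of all genes with a promoter region. Mrps2 and Mrpl3 (signal 11.0, −log10 p of 22.6 and 19.96) were called in replicate 1 only, and Mrps5, Mrpl57, Mrpl14 and Mrpl11 (22.0 and 30.4) in replicate 2 only. Each was called in the library with the higher −log10 p except Mrpl14.

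The largest gaps between libraries were those of 3 large-subunit genes. Mrpl35 had a −log10 p of 14.96 in replicate 1 and 35.3 in replicate 2, a ratio of 2.36. Mrpl4 had 14.8 and 32.2, a ratio of 2.17. Mrpl57 had 21.1 and 40.9, a ratio of 1.93. All 3 were higher in replicate 2, the library with more regions. A ratio over 2 was found for 2 of 76 members (2.63%) and for 0.880% of all genes with a promoter region. The smallest gaps were those of Mrps10 (29.62 and 29.65), Mrpl30 (35.9 and 35.7) and Mrps18b (71.1 and 70.3).

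**Figure D3:**
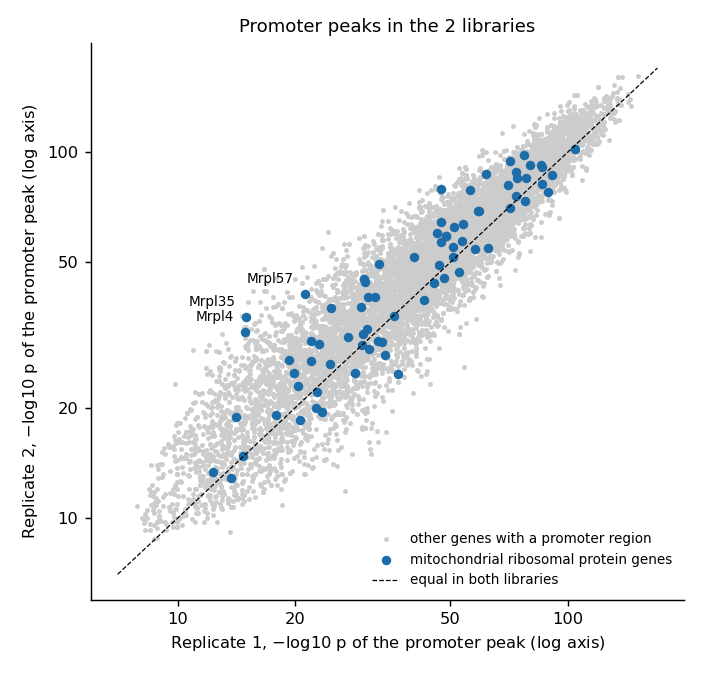
The −log10 p of the promoter peak in replicate 1 (x axis, log scale) and replicate 2 (y axis, log scale) for 76 members (blue) and the other genes with a promoter region (grey), with the line of equality dashed. The members lie along the grey cloud, and Mrpl35, Mrpl4 and Mrpl57 lie above the line with ratios of 2.36, 2.17 and 1.93.

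Promoter regions of members were centred close to the start. The median summit lay 26 bp upstream of the nearest start of the gene, against 47 bp for all genes with a promoter region. The median distance regardless of side was 38 bp against 67 bp, and 69 of 77 summits (89.6%) lay within 200 bp, against 81.6%. By annotation 46 summits were upstream of the gene, 26 in an exon and 5 in an intron. The median width was 607 bp (range 355 to 1347), against 645 bp, and 66.2% of the regions held more than 1 summit, against 53.5%. In the comparison families the median distance regardless of side was 49 bp (cytosolic ribosomal) and 35 bp (oxidative phosphorylation). Their median summits lay at -29 bp and -26 bp, in the same order, 93.8% and 89.4% lay within 200 bp, and 61.7% and 65.9% of their regions held more than 1 summit. The summits farthest from a start were those of Mrpl51, 475 bp upstream, and Mrpl48, 583 bp downstream. For Mrpl51 the strongest region contains a start of Ncapd2, and a second region with a signal of 10.7 had its summit 6 bp downstream of the Mrpl51 start.

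**Figure D4:**
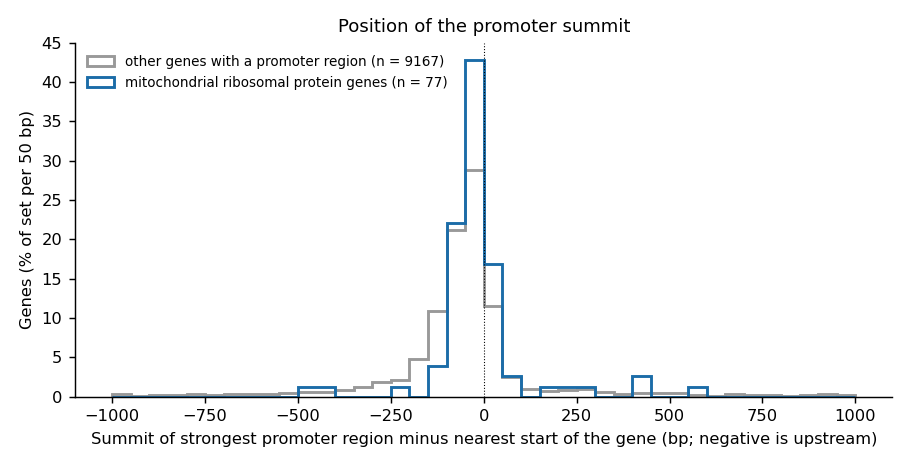
Distance from the nearest start of the gene to the summit of its strongest promoter region (x axis, bp, negative upstream) as a percentage of each set per 50 bp (y axis), for 77 members (blue) and 9167 other genes (grey). Both peak just upstream of the start, and the blue curve is taller there, with a median of -26 bp.

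Many members start beside a gene on the other strand. A head-to-head partner, a start of another protein-coding gene on the opposite strand within 1 kb, was found for 26 of 78 members (33.3%), against 9.87% of all genes, 15.4% of the cytosolic ribosomal family and 33.0% of oxidative phosphorylation genes. Of the 26, 25 had a promoter region (96.2%), against 88.1% of all genes with a partner. Of the 52 members with no partner all had a promoter region, against 37.3% of all such genes. Accessibility at a shared promoter cannot be given to 1 gene of the pair. The strongest region of 34 of the 77 members (44.2%) contained or lay within 1 kb of a start of another gene, against 24.5% of all genes with a promoter region. Counting only regions whose summit was at least as near to a start of the gene itself as to any other gene's, 65 members (83.3%) had one, against 37.9% of all genes.

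The closest pairs were Mrpl54 with Apba3 at 26 bp, Mrps18c with Helq and Mrps34 with Eme2 both at 29 bp, and Mrpl46 with Mrps11 at 30 bp. In the last pair both genes are members, 1 for each subunit, and they share a region at chr7:78782687-78783467 with a signal of 14.8 and −log10 p of 48.8 in replicate 1 and 58.9 in replicate 2. Several partners that were named after their values were seen also encode mitochondrial proteins. They are Twnk, the helicase of mitochondrial DNA, 116 bp from Mrpl43; Sars2, the mitochondrial seryl-tRNA synthetase, 182 bp from Mrps12; and Ndufs6, a subunit of complex I, 51 bp from Mrpl36. The regions there had signals of 17.4, 17.6 and 10.5. How often partners encode mitochondrial proteins was not counted, for members or for all genes. The promoter of Mrps11 is shown because 2 members share it (chr7:78782881-78783180, plus strand), with capitals for the YY1 core, here on the other strand, and it was added after the values were seen.
Mrps11: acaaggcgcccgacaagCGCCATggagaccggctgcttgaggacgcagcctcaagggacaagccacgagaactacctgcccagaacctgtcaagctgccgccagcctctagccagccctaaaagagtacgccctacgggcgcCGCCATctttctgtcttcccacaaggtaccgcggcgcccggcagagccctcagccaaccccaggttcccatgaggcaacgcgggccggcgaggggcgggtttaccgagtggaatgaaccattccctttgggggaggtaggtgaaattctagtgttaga
Measured to the middle of the match, both lie upstream, 230 and 105 bp before the RefSeq start, and the shared summit lies 49 bp upstream of the GENCODE start of Mrps11.

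Promoter base composition goes with accessibility over all genes, so members were set beside genes of the same class. A promoter was called CpG-rich where its 300 bases had an observed-to-expected CpG ratio of at least 0.6 and a GC content of at least 50%. Of the 69 members with a RefSeq promoter entry, 55 (79.7%) were CpG-rich, against 47.4% of all genes. All 55 had a promoter region, against 71.4% of all CpG-rich genes. All 14 members whose promoter was not CpG-rich, among them Mrpl44 and Mrpl20, had a promoter region too, against 20.5% of all such genes. These 14 lay near the limits of the class, so the 20.5% may not come from promoters of like composition. Mrps30 (ratio 0.877, GC 49.3%) and Mrpl36 (0.769, 49.7%) missed only the GC limit, and the lowest ratio of the 14 was 0.521, at Mrpl44. How near the limits the other genes lay was not measured. Both comparison families were also high in each class, with 96.2% of CpG-rich and 84.6% of other promoters open in the cytosolic ribosomal family, and 94.7% and 88.9% among oxidative phosphorylation genes.

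Letters recognised by the textbook regulators were frequent in member promoters. The ETS pattern CCGGAAG was found in 25 of 69 members (36.2%), against 12.3% of all promoters and 22.9% of those of genes with a promoter region. The NRF1 core TGCGCA was found in 21 (30.4%), against 10.3% and 16.8%. The longer NRF1 pattern GCGCATGCG, which can overlap but does not contain that core, was found in 7 (10.1%), against 2.51% and 4.69%. The YY1 core ATGGCG was found in 19 (27.5%), against 11.5% and 18.9%, and the longer AAGATGGCG, which contains it, in 8 (11.6%), against 2.05% and 4.08%. At least 1 of the ETS, NRF1 core and YY1 core patterns stood in 47 members (68.1%), against 28.5% of all promoters and 47.3% of those of genes with a region. The letters ATGGCG can also be the start of a coding sequence, as at Mrps5 and Mrpl53, whose matches are centred 5 and 7 bp after the RefSeq start.

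Set beside CpG-rich promoters with a region, the shares were 25.9% for ETS, 19.8% for the NRF1 core and 21.5% for the YY1 core. The cytosolic ribosomal family held the ETS pattern at 36.9%, the NRF1 core at 18.5% and the YY1 core at 29.2%, and oxidative phosphorylation genes held them at 22.7%, 24% and 26.7%. The longer NRF1 pattern stood in 3.08% of the cytosolic family and 13.3% of oxidative phosphorylation genes, and the longer YY1 pattern in 6.15% and 9.33%. The share with at least 1 of ETS, NRF1 core and YY1 core was not taken in these sets. The order of families thus differed by pattern, and members were not the highest for each. Within 100 bp of the summits the ETS pattern stood in 38.2% of 76 member regions against 20.8% of 8131 regions, the YY1 core in 30.3% against 14.7%, and the NRF1 core in 18.4% against 13.2%. The median ETS match lay 13.5 bp upstream of the RefSeq start in members and 30 bp upstream in all genes with a region.

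Of the other patterns searched, only the short CRE pattern also stood most often in members, less in promoters with a region and least in all promoters. The GATA pattern, given at the end, was above both backgrounds in members too. The SP/KLF pattern GGGCGG stood in 49.3% of members and 48.0% of all promoters, against 67.8% of promoters with a region and 76.3% of the CpG-rich ones. The CCAAT box stood in 39.1% of members, 38.7% of all promoters and 41.7% of promoters with a region, so members were near the background. The E-box CACGTG stood in 7.25%, 8.13% and 11.3%, and TATAAA in 5.80%, 12.9% and 5.97%. The short CRE pattern TGACG stood in 42.0% of members, 36.0% of promoters with a region and 24.4% of all promoters. It stood in 46.2% of the cytosolic ribosomal family and 36% of oxidative phosphorylation genes. The full CRE TGACGTCA, which contains it, stood in 2.90% of members and 3.93% of promoters with a region. The rarer TCTCGCGAG stood in 1.45% and 1.98%, and CTACAATTC (ZNF143) in no member and 1.02%. Members with a CCAAT box had a median signal of 16.2, and those without it 12.8, beside 15.5 and 13.1 in all genes with a region. For the ETS pattern the medians were 15.6 and 13.5, beside 14.9 and 13.8. For the SP/KLF pattern they were 14.8 and 13.6, beside 14.06 and 14.12. With the YY1 core the medians were 13.0 and without it 14.5, beside 14.4 and 13.98, and for the NRF1 core they were 13.8 and 14.5, beside 14.1 in both sets of all genes. Members thus had the order of all genes for the CCAAT box and ETS, and not for the other 3. A match is a run of letters, and binding of a factor was not measured.

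**Figure D5:**
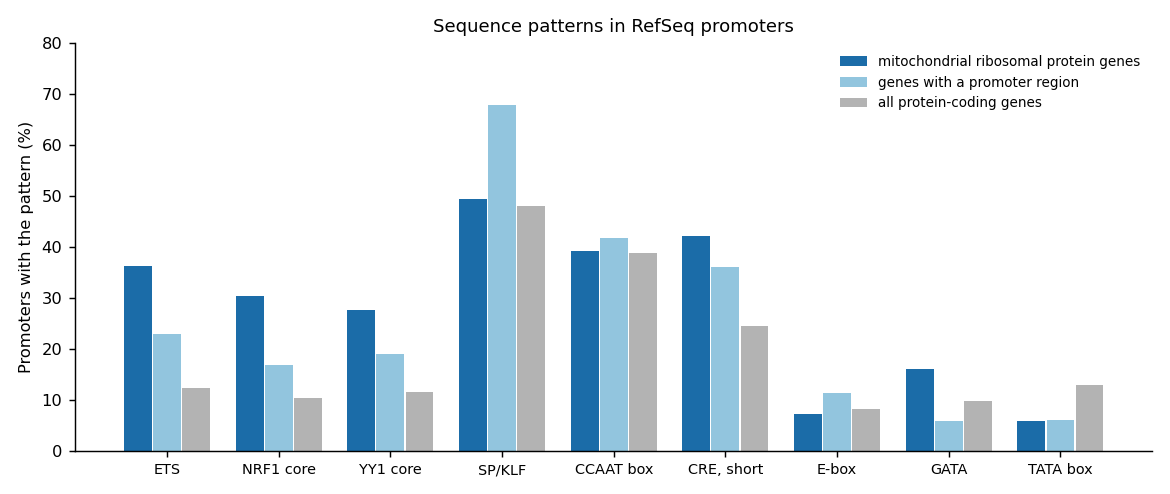
Share of RefSeq promoters with each pattern on either strand (y axis, percent) for 69 members (dark blue), genes with a promoter region (light blue) and all protein-coding genes (grey). The dark bars exceed both others for ETS (36.2%), NRF1 core (30.4%), YY1 core (27.5%), the short CRE (42.0%) and GATA (15.9%), and lie below the light bar for SP/KLF (49.3%).

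Distal accessible regions were about as frequent near members as near other genes. A distal region has its summit over 1 kb from every protein-coding start and lies within 50 kb of the gene body. At least 1 was found for 46 of 78 members (59.0%), against 50.6% of all genes. The mean was 1.15 per member and 1.19 per protein-coding gene, with a median of 1 in each, while the cytosolic ribosomal family had 1.62 and oxidative phosphorylation genes 1.32. In the libraries' own lists members had a mean of 0.538 ± 0.0363 (SD, n = 2), and all genes 0.709 ± 0.0933 (SD, n = 2) and members were the lower in each library.

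The members with most distal regions were Mrpl20 with 7, Mrpl14 with 6, Mrps28 with 5 and Mrpl4 with 4, and then 5 members with 3. None of the 7 regions near Mrpl20 had a Mrpl20 start as its nearest gene start, and neither did the 6 near Mrpl14. Of 88 distinct distal regions near members, 27 (30.7%) had a member's start as the nearest. The strongest, at chr13:99353081-99353820, had a signal of 23.7, lay 8.58 kb downstream of the Mrps27 start and was called in both libraries' own lists. Near Mrps23, a region at chr11:88187582-88187966 had a signal of 16.2. The GATA pattern AGATAA stood in the summit window of 14 of the 88 regions (15.9%), against 25.5% of 10583 distal regions in all.

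In the conservative list promoter regions were also present at most other genes of mitochondrial translation. All 5 mitochondrial ribosomal proteins with other symbols had a promoter region there, against 42.3% of all genes. Each library's own list held 3 of the 5, however, and 2 of the 5 were called in both. Dap3, a small-subunit protein first known from cell death, had a signal of 9.38, called in replicate 2 only, with −log10 p of 11.8 in replicate 1 and 28.6 in replicate 2. Ptcd3, which binds mitochondrial RNA, had 13.5 (23.5 and 45.0), Chchd1 had 7.53 (14.8 and 15.9), called in replicate 1 only, and Aurkaip1 had 14.5 (60.3 and 74.9). For Gadd45gip1 the only region had a signal of 8.0 and its summit 733 bp from the start, and neither own list called it.

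Of all protein-coding genes 42.3% had a promoter region, and 88.7% of those with one were called in both libraries. Of 25 assembly factors of the mitochondrial ribosome 24 had a promoter region (96%, median signal 14.98) and 22 were called in both libraries. Gtpbp10, a GTPase of large-subunit assembly, had no promoter region. All 15 translation factors had a promoter region, with a median of 14.4, and each was called in both libraries. All 10 genes of mitochondrial DNA transcription and replication had one as well, 9 of them called in both libraries, with a median of 16.4, among them Polrmt, the mitochondrial RNA polymerase, at 20.8, and Tfam, which packages mitochondrial DNA, at 15.5.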

How the data were processed

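The members and gene lists were chosen with earlier results of these data known. Peak lists of 2 ATAC-seq libraries in 1 group were read, on mm10 per the labels. The authors deposited a signal per peak and −log10 p values of peaks, per library and for both libraries together. Not given in the sources used here: aligner, peak caller, filters, software versions and read depth, so precision rests on the spread between libraries. An exclusion list is named among the inputs of the thresholded lists, per the deposited file list. Overlapping peaks were merged with Python 3.11.15, each region taking the summit of its highest signal. Starts of protein-coding transcripts came from GENCODE M21, and sequences from RefSeq (GRCm38.p6), which gave promoters for 69 of 78 members. Each library's −log10 p is the highest in its own ranked list at the region. Named members are those with no region, the 10 strongest and 5 weakest, those not called in both libraries, the 5 with most distal regions, the 5 with the closest partners, and the 3 most and 3 least different between libraries. Others named were chosen after their values were seen. The merging of peaks and the promoter calls were tested on simulated regions near starts, and the other counts were not. Alternatives covered the list, window, distance and either library left out.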

Additional observations from a re-analysis of the deposited data

How the results depend on the processing

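The number of members with a promoter region ranged from 65 to 78 over the alternatives run, always above the share of all genes. These covered the pooled and looser lists, windows of 200 bp and 2 kb, starts of every transcript, summits in place of overlap, regions above the median signal and, added after seeing the data, summits nearest to the member's own start. Without replicate 1 or 2 it ranged from 70 to 72. The mean number of distal regions per member was 0.641 within 20 kb (0.675 for all genes), 2.08 within 100 kb (1.99) and 1.01 in the pooled list (1.24), and ranged from 0.513 to 0.564 without a library, so its order against all genes depended on the distance. Without a library, an alternative added after seeing the data, the members' median signal ranged from 12.4 to 13.1 in the remaining library's own list. In the summit windows the NRF1 core stood in 18.4% and the GATA pattern in 6.58% of member regions, against 30.4% and 15.9% of RefSeq promoters. The cause of these shifts was not tested. The median signal with the region nearest to the start was 13.8. The number called in both libraries was 68 with 50% overlap of the same region and 77 in the looser lists. Those 77 are not the 77 of the conservative list. They include Mrps34 and lack Mrpl53, which had no region in the looser list of replicate 1. The share of all genes was not taken for these settings. No paired analysis was possible because the study has 1 group. Unknown read depth limits what the absence of a region means, and 2 libraries limit every spread.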

Other observations

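The GATA pattern AGATAA, the letters bound by GATA1 and its relatives, stood in the RefSeq promoters of 11 of 69 members (15.9%), against 9.73% of all promoters and 5.93% of those of genes with a promoter region. It stood in 6.15% of cytosolic ribosomal and 8% of oxidative phosphorylation promoters. The members, named after their values were seen, were Mrps14, Mrpl33, Mrps18c, Mrps17, Mrps25, Mrpl3, Mrpl45, Mrpl36, Mrps36, Mrpl28 and Mrpl16. Their signals ran from 9.13 (Mrps25) to 20.7 (Mrps18c). The matches were nearest to the start at Mrps17, 70 bp upstream, and farthest at Mrpl45, 242 bp upstream. Within 100 bp of the summits 5 of 76 member regions (6.58%) held the pattern, against 3.25% of all promoter regions.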
